A study of Bos taurus with 4 samples.

Results

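Nuclear receptors are transcription factors that carry a zinc finger domain for DNA and, in most of them, a pocket for a small lipid-soluble ligand such as a steroid, thyroid hormone, retinoic acid or a fatty acid derivative. With ligand they recruit coactivators that open chromatin, and without it many of them hold corepressors that close it. In adipose tissue they are known for setting adipocyte formation, lipid storage and the response to sex steroids, glucocorticoids and thyroid hormone. The entries described here were those of the 4 count tables whose sequence description named a nuclear receptor, a receptor for a sex steroid, retinoic acid or thyroid hormone, a retinoid X receptor, a retinoid-related orphan or a peroxisome proliferator-activated receptor. There were 57 such entries of 36373, for 56 genes, and 13230 of all entries had a description that could be searched.

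The libraries came from subcutaneous adipose tissue of Chinese Qinchuan cattle with no treatment, transgene or deletion. ATFB was from fetuses labelled 200 to 250 days old, and ATAB, ATAH and ATAS were from adult bulls, adult heifers and adult steers labelled 18 to 24 months old. Steers are castrated males, and the labels do not give the sex of the fetuses. RNA of 5 animals was pooled into 1 library per group, so no animal was measured on its own and a ratio between groups has no replicate check. Each entry is a UniGene cluster, that is, a group of transcript sequences with 1 of them standing for it, and its level is given as RPKM, the reads divided by the length of the sequence and by the library total.

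The 4 libraries held 15.3, 16.1, 15.6 and 15.6 M counted reads in the order ATFB, ATAB, ATAH and ATAS, which is the order of all values below. XIST, which coats the inactive X chromosome, had 36.3, 0.193, 28.1 and 0.276 RPKM, and the Y-linked DDX3Y had 0, 234, 2 and 298 reads, so ATFB differed from ATAB and ATAS in these sex markers as well as in age. All 6 adipocyte markers had reads in every library, and their summed level was 725, 4173, 5119 and 5513 RPKM. Among the adult libraries LEP and LPL went against this order. LEP had 128, 118 and 74.8 RPKM and LPL 566, 507 and 304 in ATAB, ATAH and ATAS, and CIDEC was highest in ATAH. LPL was not called between ATFB and ATAS. For 6 markers of preadipocytes and fibroblasts the sum was 11038, 7747, 2290 and 2998 RPKM. In ATAB DLK1 was at 0 reads, COL3A1 went against the sum with 2903 RPKM and 1980 in ATFB, and COL1A1, LUM and PDGFRA differed from ATFB by -0.29, -0.37 and -0.36 on the log2 scale. For 2 erythroid markers the sum was 2390, 0.761, 1.54 and 0 RPKM. Endothelial markers (4 found) summed to 182, 256, 354 and 450 RPKM, with PECAM1 and KDR lower in ATAB than in ATFB and VWF and CDH5 higher, macrophage markers (4 found) to 120, 203, 189 and 290, and T cell markers (5 found) to 2.0, 6.37, 10.4 and 16, with CD4 going against the sum in ATAB (43 reads in ATFB and 22 in ATAB). Smooth muscle markers (3 found) summed to 390, 278, 300 and 303 RPKM, where ACTA2 alone was lower in the adult libraries and MYH11 and CNN1 were higher. Skeletal muscle markers (3 found) summed to 3.37, 1.43, 4.83 and 2.23. MYH2 went against that sum in ATAH and ATAS (18 reads in ATFB, 10 and 40 there). Epidermal markers (3 found) summed to 15.8, 2.88, 3.12 and 2.09, where KRT13 and KRT14 had at most 2 reads in an adult library. KRT10 had 3.44, 2.88, 3.05 and 2.01 RPKM with no call. Most of these sums differed more between ATFB and the adult libraries than between ATAH and ATAS, and their part in the results was not tested. In bulk tissue, fewer cells of a type and less RNA per cell cannot be told apart.

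By their known roles the entries were 6 for steroid receptors, 7 for retinoid and thyroid hormone receptors, 5 for lipid and bile acid receptors, 5 for receptors of the circadian clock and 8 for orphan receptors, which makes 31 receptor entries for 30 genes. The other 26 were 12 coactivators, 3 corepressors and 11 other proteins named after a receptor. Of these 11, NRIP3, TRIP12 and TRIP13 were also on the lists of coregulators used to choose genes to name. Reads were found in all 4 libraries for 53 entries, and 50 had at least 100 reads in all. The 4 entries under 20 reads were NR0B1, NR1H4, NR1I2 and RORB. NR1H4, the bile acid receptor, had 0, 0, 0 and 2 reads, and RORB had 1, 0, 0 and 0. NR1I2, a receptor for foreign compounds, had 0, 0, 9 and 1 reads, and NR0B1, which lacks the usual DNA-binding domain, had 2, 4, 6 and 2. A library with 0 reads allows up to 3, which is 0.196 RPKM in ATFB on a sequence of 1 kb.

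What the receptors share in sequence is the first zinc finger of the DNA-binding domain, whose end, the P box, reads the bases of the response element. The coding bases of this finger were found in 28 of the 31 receptor entries, as 69 bases from the codon of its first cysteine. It was not found in NR0B1, in RARB, whose partial sequence is 874 bases long, or in the second ESR1 cluster, which carries no marked coding sequence. The lines below show it for receptors on which the results turn, 5′ to 3′ on the coding strand as the authors' sequence file gives it, with the last 18 bases, which hold the P box, in capitals.
ESR1: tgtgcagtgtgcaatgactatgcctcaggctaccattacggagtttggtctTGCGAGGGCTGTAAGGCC
NR3C1: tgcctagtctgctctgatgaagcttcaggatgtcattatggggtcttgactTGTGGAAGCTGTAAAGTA
NR3C2: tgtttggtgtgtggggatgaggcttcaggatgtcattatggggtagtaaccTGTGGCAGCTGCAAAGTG
THRA: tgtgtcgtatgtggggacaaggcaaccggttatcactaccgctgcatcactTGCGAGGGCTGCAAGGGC
THRB: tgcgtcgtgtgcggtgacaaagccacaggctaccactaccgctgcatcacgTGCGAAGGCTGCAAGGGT
PPARD: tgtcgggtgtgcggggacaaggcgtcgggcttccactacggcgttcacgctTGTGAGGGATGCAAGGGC
NR1D2: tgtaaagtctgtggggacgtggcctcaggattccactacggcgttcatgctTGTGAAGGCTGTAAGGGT
NR2C2: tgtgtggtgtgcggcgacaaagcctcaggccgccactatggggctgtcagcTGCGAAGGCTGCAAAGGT
NR4A1: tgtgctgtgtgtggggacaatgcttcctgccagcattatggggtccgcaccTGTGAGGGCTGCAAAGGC
NR5A2: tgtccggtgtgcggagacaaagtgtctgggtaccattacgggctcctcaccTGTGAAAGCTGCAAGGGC
NR2E1: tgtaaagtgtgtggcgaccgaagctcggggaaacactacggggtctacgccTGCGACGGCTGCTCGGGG
Read as codons, the 18 bases fell into 6 groups. NR3C1, NR3C2 and PGR coded for the same residues, and 20 receptors of the thyroid, retinoid, lipid, clock and orphan roles shared another set with 15 spellings. ESR1, NR2F2, NR5A2 and NR2E1 each stood alone. Over the whole finger, NR3C1 and NR3C2 had 53 of 69 bases in common (76.8%) and NR3C1 and PGR had 54 (78.3%), against a median of 68.1% over the 190 pairs of the group of 20 and 63.8% over the 182 pairs between groups. THRA and THRB had 57 of 69 bases in common (82.6%). A read was counted only where it matched once, and 38 of the 57 entries shared no stretch of 50 bases with another measured cluster on either strand. Over 5% of such stretches were shared in 9 entries, of which NR5A2 with 36.4% and THRA with 35.5% had the most, and the THRA and NR1D1 clusters share theirs with each other. NR2C2 with 11.5% and NR3C2 with 9.46% were also among the 9. Reads from those stretches could be lost or assigned to either gene, so the levels of these entries are uncertain.

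Between 2 libraries, an entry was called when an exact two-sided binomial test of its reads, given the library totals and adjusted by Benjamini-Hochberg over all clusters, reached a false discovery rate (FDR) of 0.001 and the log2 ratio of RPKM was at least 1 in size. Such a call compares 2 libraries and not 2 conditions, and the intervals given with ratios are 95% Clopper-Pearson intervals that cover counting error only. Between ATFB and ATAB, 14 of 55 entries with reads were called, 10 higher and 4 lower in ATAB, against 22.6% of all clusters (9.51% higher and 13.1% lower). Between ATFB and ATAH, 19 of 56 were called, 15 higher and 4 lower in ATAH, against 23.7% (13.9% higher and 9.83% lower). Between ATFB and ATAS, 20 of 57 were called, 18 higher and 2 lower in ATAS, against 26.0% (15.5% higher and 10.5% lower). Described clusters with at least 100 reads, which are more like these entries in depth, were called in 29.5%, 33.7% and 36.1%, so the counts of called entries were near the background. The median log2 ratio to ATFB over the entries was -0.03, 0.45 and 0.45, against -0.14, 0.07 and 0.08 over all clusters and -0.00, 0.24 and 0.32 over the described clusters with at least 100 reads, and with TMM factors the median for ATAB turned positive. The 3 comparisons share the ATFB library and are not independent.

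Called higher than ATFB in each of ATAB, ATAH and ATAS were 10 entries, among them both ESR1 clusters, NR1D2, NR2C2, NR3C2, NSD1, PPARD, RXRG and THRB. RARRES1 and TRIP13 were called lower in each of them. Of all 36373 clusters, 6.79% were called higher in each adult library and 6.1% lower. These shares include clusters with too few reads to be called, and they were not taken among the described clusters with at least 100 reads. No entry was called higher in 1 adult library and lower in another against ATFB. In none of the 6 comparisons were 29 entries called, and the share of all clusters called in none was not taken. With ATFB against the 3 adult libraries, whose sex and castration differ and whose spread is the only one available, edgeR's quasi-likelihood test with Benjamini-Hochberg adjustment put 11 of 53 entries past an FDR of 0.05, the same 10 higher in adults and RARRES1 lower, against 18.2% of the 25584 clusters tested (9.83% higher and 8.39% lower in adults). Leaving out ATAB put more entries past that threshold, and leaving out ATAH put fewer, without NR1D2, NSD1, PPARD and RXRG. The shares of all clusters in these fits were not taken.

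**Figure D1:**
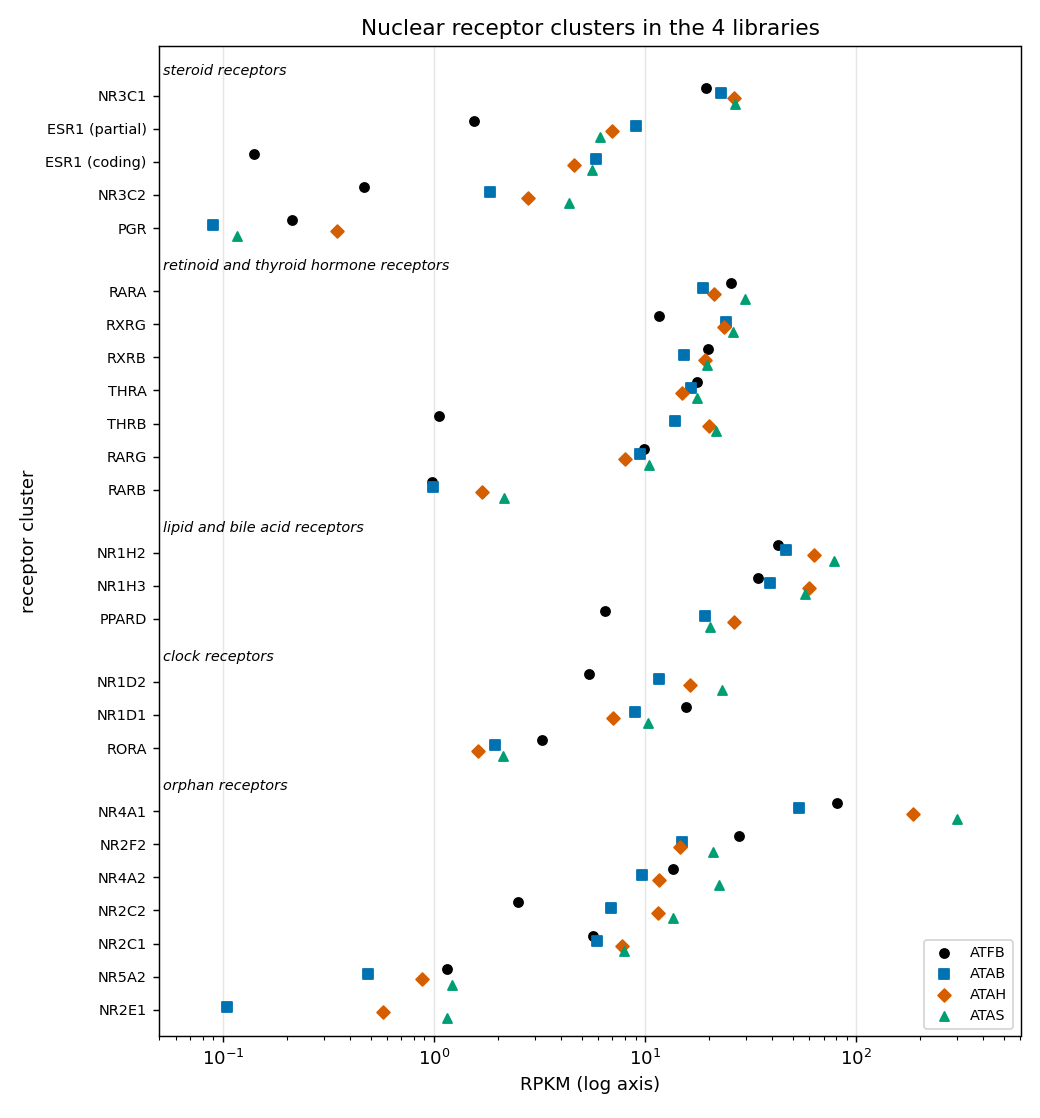
RPKM (log axis) of 25 receptor entries with at least 20 reads, by role, with 1 point per library. In ESR1, NR3C2, THRB, PPARD, NR1D2 and NR2C2 the ATFB point lies apart to the left, while NR3C1, THRA, RXRB, RARA and RARG keep the 4 points close together. NR2E1 has no ATFB point because it had 0 reads there.

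Among the steroid receptors, those for estrogen and mineralocorticoid were higher in the adult libraries, while the glucocorticoid receptor was not called. ESR1, the estrogen receptor alpha gene, had 2 clusters that shared no 50-base stretch. The cluster with the complete coding sequence had 0.141, 5.85, 4.60 and 5.61 RPKM from 5, 220, 167 and 203 reads. The 3 adult levels lay close together and far above ATFB, with log2 ratios to ATFB of 5.38 (interval 4.13 to 7.02), 5.03 (3.78 to 6.67) and 5.32 (4.07 to 6.96) and an edgeR quasi-likelihood adjusted p of 0.0084. In ATFB its reads covered 16.3% of the sequence, against 93.8% to 95.6% in the adult libraries.

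The other ESR1 cluster, a partial sequence, had 1.54, 9.09, 6.97 and 6.13 RPKM from 78, 486, 360 and 316 reads. It was also lowest in ATFB, but by less, with log2 ratios of 2.56, 2.18 and 1.99 and an edgeR quasi-likelihood adjusted p of 0.0233. The coding cluster therefore took 6.02% of the reads of both clusters in ATFB (interval 1.98% to 13.5%) and 31.2%, 31.7% and 39.1% in the adult libraries, where the lowest bound was 27.7%. Between the adult libraries neither cluster was called, and ATAB was the highest library for both. Over both clusters the log2 ratio of ATAS to ATAB was -0.39 (interval -0.56 to -0.22), with no call.

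NR3C2, the mineralocorticoid receptor, had 0.466, 1.84, 2.78 and 4.36 RPKM from 23, 96, 140 and 219 reads. Its lowest library was ATFB and its highest ATAS, and the log2 ratios over ATFB were 1.98, 2.58 and 3.22 with an edgeR quasi-likelihood adjusted p of 0.0241. NR3C2 was also called higher in ATAS than in ATAB, by 1.24 (interval 0.89 to 1.61), a call that was lost with TMM factors.

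NR3C1, the glucocorticoid receptor, was the most abundant steroid receptor, at 19.4, 22.8, 26.4 and 26.6 RPKM. Its 4 levels lay close together, with log2 ratios to ATFB of 0.23, 0.44 and 0.45, and it was called in no comparison. NR3C2 made up 2.35% of the summed RPKM of NR3C1 and NR3C2 in ATFB and 7.47%, 9.54% and 14.1% in the adult libraries. The progesterone receptor gene PGR had 9, 4, 15 and 5 reads, which is 0.0894 to 0.347 RPKM, and was called in no comparison.

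Of the thyroid hormone receptors, THRB was higher in the adult libraries and THRA was not called. THRB had 1.06, 13.9, 19.98 and 21.6 RPKM from 16, 222, 308 and 333 reads. The adult levels were far above ATFB and nearer to each other, with log2 ratios of 3.71 (interval 2.98 to 4.55), 4.24 (3.51 to 5.06) and 4.35 (3.63 to 5.18) and an edgeR quasi-likelihood adjusted p of 0.00756. THRA, the other thyroid hormone receptor, had 17.6, 16.4, 14.9 and 17.7 RPKM and was called nowhere. THRB thus made up 5.67% of the summed RPKM of THRA and THRB in ATFB and 45.8%, 57.2% and 55% in ATAB, ATAH and ATAS, although the THRB sequence of 989 bases is partial and 35.5% of the THRA stretches are shared.

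The retinoid receptors showed the same kind of contrast within a family at a smaller size. RXRG, a retinoid X receptor, which pairs with many other receptors on DNA, had 11.7, 24.2, 23.8 and 26.1 RPKM. The adult libraries lay near each other and above ATFB, with log2 ratios of 1.05, 1.02 and 1.16, just past the call threshold, and an edgeR quasi-likelihood adjusted p of 0.0466. RXRG lost its call in ATAH with TMM factors. Scaled by ACTB, it was called in no comparison with ATFB, and without ATAH it did not pass the edgeR test. RXRB had 19.7, 15.3, 19.2 and 19.6 RPKM and no call. The retinoic acid receptors RARA, at 25.4, 18.7, 21.3 and 29.8 RPKM, and RARG, at 9.92, 9.49, 8.01 and 10.4, were not called either. RARB had 13, 14, 23 and 29 reads (0.974 to 2.13 RPKM) with no call.

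**Figure D2:**
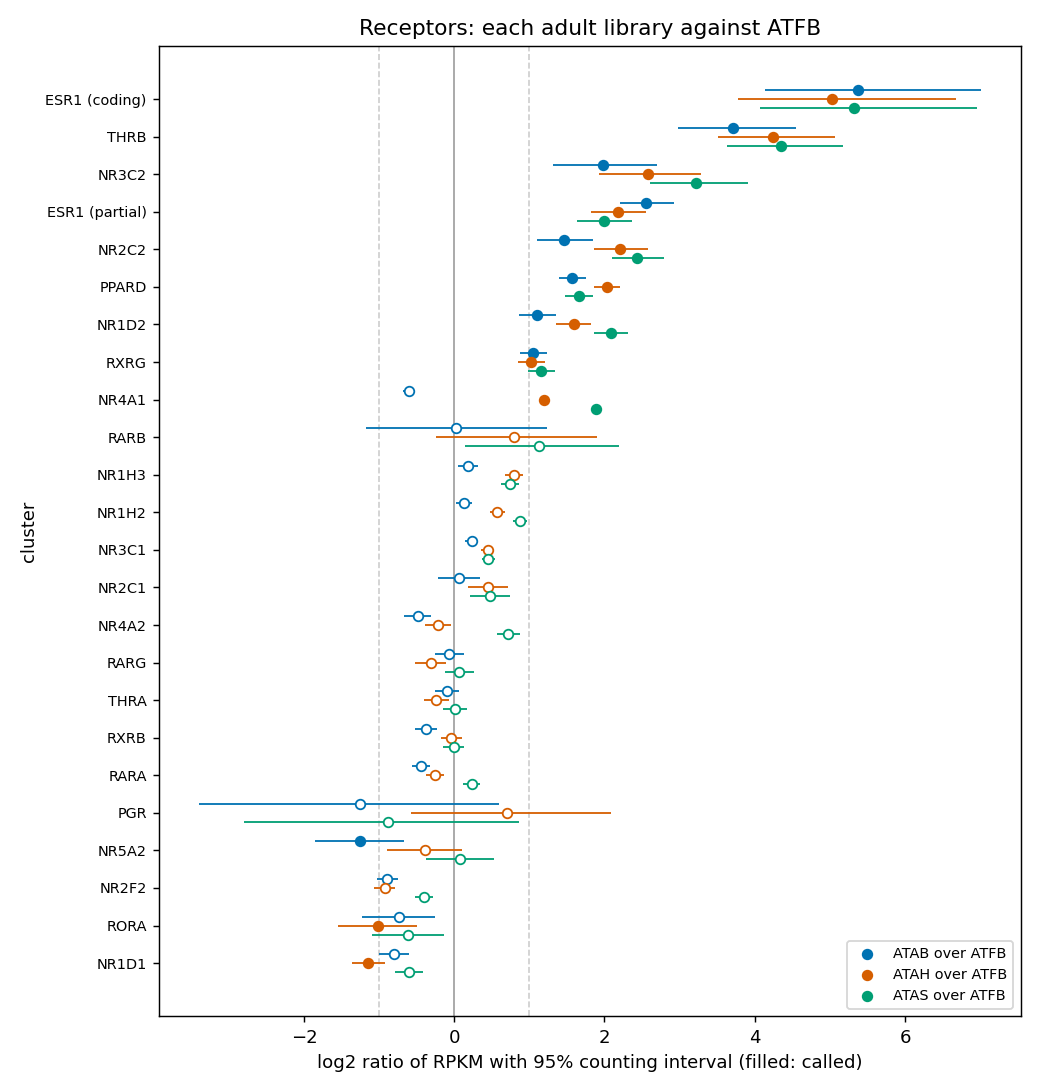
Log2 ratio of RPKM of each adult library to ATFB for 24 receptor entries with at least 20 reads, with 95% counting intervals. Filled points were called, dashed lines mark a log2 ratio of 1 in size, and NR2E1 is left out because ATFB had 0 reads. The top 8 rows, from ESR1 to RXRG, have 3 filled points each to the right, and NR4A1 has ATAB on the other side from ATAH and ATAS.

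Of the receptors for lipids, PPARD was called and the liver X receptors were not. PPARD, a fatty acid receptor that raises fatty acid oxidation genes, had 6.45, 19.1, 26.4 and 20.4 RPKM from 325, 1020, 1357 and 1046 reads. Its adult levels were highest in ATAH and all above ATFB, with log2 ratios of 1.57 (interval 1.39 to 1.75), 2.03 (1.86 to 2.21) and 1.66 (1.48 to 1.84) and an edgeR quasi-likelihood adjusted p of 0.0185, a test it did not pass without ATAH. NR1H2 and NR1H3, the liver X receptors, which sense oxysterols, were more abundant, at 42.6, 46.7, 63.3 and 78.1 RPKM and at 34.3, 39.0, 59.7 and 57.4 RPKM. Both were lowest in ATFB, though below ATFB in ATAB when scaled by ACTB, and their log2 ratios of ATAS to ATFB, 0.87 and 0.74, stayed under the threshold of 1. NR1H2 made up 51.5% to 57.6% of the pair in the 4 libraries.

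The clock receptors went in different directions. NR1D2, a heme-binding repressor, had 5.43, 11.7, 16.3 and 23.1 RPKM. It was above ATFB in each adult library, with log2 ratios of 1.11, 1.59 and 2.09 and an edgeR quasi-likelihood adjusted p of 0.032. Scaled by ACTB, NR1D2 had 0.87 in ATAB and was not called there, and without ATAH it did not pass the edgeR test. NR1D1, its close relative, had 15.6, 8.98, 7.07 and 10.3 RPKM, was highest in ATFB and was called lower in ATAH, by -1.14 (interval -1.36 to -0.93), and in no other library. NR1D2 made up 25.8% of the summed RPKM of both in ATFB and 56.5%, 69.8% and 69.2% in the adult libraries. RORA, an activator of the same clock element, had 3.25, 1.95, 1.61 and 2.13 RPKM and was called lower in ATAH, by -1.01 (interval -1.55 to -0.49). The hour at which tissue was taken is not given in the sources used here.

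**Figure D3:**
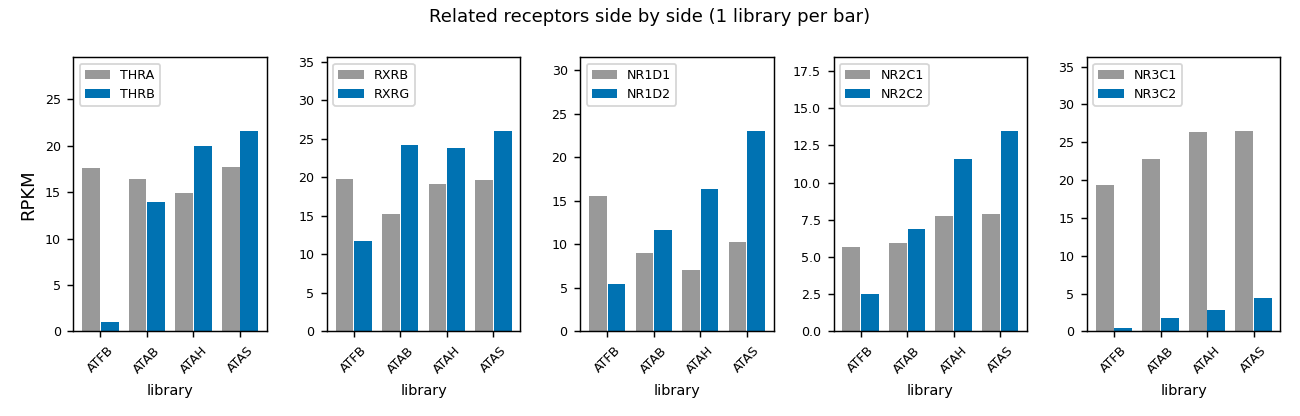
RPKM of 5 pairs of related receptors in the 4 libraries, with 1 bar per library and no replicates. In the pairs of THRA and THRB, RXRB and RXRG, NR1D1 and NR1D2, and NR2C1 and NR2C2, the gray bar is the higher one in ATFB, and the blue bar is the higher one in ATAH and ATAS; NR3C1 exceeds NR3C2 in all 4 libraries.

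Of the orphan receptors, NR2C2 was called higher in each adult library and NR4A1 was called between ATAB and each of the other adult libraries. NR2C2 had 2.49, 6.87, 11.6 and 13.5 RPKM from 82, 239, 388 and 452 reads. The adult libraries were all above ATFB, with log2 ratios of 1.46, 2.21 and 2.44 and an edgeR quasi-likelihood adjusted p of 0.0199, while its relative NR2C1 had 5.68, 5.93, 7.77 and 7.92 RPKM and no call. NR2F2, which is known for marking venous endothelium and mesenchymal cells, had 27.8, 15.0, 14.7 and 21.1 RPKM, with log2 ratios to ATFB of -0.89, -0.92 and -0.40 that were not called.

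NR4A1, an immediate early gene that is switched on within minutes by many stimuli, was the most abundant of the receptor entries in every library. It had 81.0, 53.3, 185 and 299 RPKM from 3168, 2204, 7387 and 11902 reads, and took 23.2%, 14.8%, 32.9% and 40.8% of the summed RPKM of all receptor entries. ATAB lay below ATFB, by -0.60 on the log2 scale, and ATAH and ATAS were called above it, by 1.19 and 1.88. Scaled by ACTB, the ratio in ATAH was 0.92 and not called. With the adult libraries on both sides of ATFB, the edgeR quasi-likelihood adjusted p was 0.359. Other immediate early genes, named after these values were seen, were also higher in ATAS than in ATAB, with FOS at 26.2, 115, 287 and 363 RPKM, FOSL2 at 13.1, 36.3, 71.4 and 113 RPKM and MYC at 88.8, 73.0, 196 and 222 RPKM, and their part in the result was not tested. NR4A2 had 13.5, 9.67, 11.7 and 22.3 RPKM and was not called against ATFB.

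NR2E1 and NR5A2 were rare. NR2E1, known from neural stem cells and retina, had 0, 3, 16 and 32 reads, which is 0 to 1.15 RPKM. Against the floor of 3 reads in ATFB, with the reads of the adult libraries taken as exact, it was at least 5.23-fold higher in ATAH and at least 10.5-fold higher in ATAS. The 95% counting intervals of these log2 ratios, which count the error of both libraries, began lower, at 1.92 and 3.01. Its edgeR quasi-likelihood adjusted p was 0.093. NR5A2, a phospholipid-binding receptor, had 81, 36, 63 and 87 reads (1.15, 0.485, 0.879 and 1.22 RPKM) and was called lower in ATAB than in ATFB, by -1.25 (interval -1.86 to -0.67).

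Between the adult libraries, 3 of 55 entries were called between ATAB and ATAH, against 5.37% of all clusters, 8 of 56 between ATAB and ATAS, against 8.72%, and 1 of 56 between ATAH and ATAS, against 3.0%. Among the described clusters with at least 100 reads, the shares were 8.07%, 14.6% and 4.48%, so these counts too were near the background. All calls were higher in ATAH or ATAS than in ATAB, or higher in ATAS than in ATAH, where 4.14%, 6.86% and 1.52% of all clusters were called in that direction. In all, 9 entries were called in at least 1 of these comparisons, against 11.0% of all clusters. The comparisons share libraries, and with TMM factors every log2 ratio of ATAH or ATAS to ATAB is 0.28 or 0.29 lower. Of the 57 entries, 44 (77.2%) had their lowest adult level in ATAB, against 63.9% of the described clusters with at least 100 reads, but with TMM factors 12 ratios of ATAH to ATAB and 15 of ATAS to ATAB turned sign.

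NRIP3, a protein named for binding nuclear receptors, was called in all 3. It had 2.11, 1.68, 7.74 and 18.3 RPKM from 122, 103, 457 and 1076 reads, so ATFB and ATAB were near each other and ATAH and ATAS stood above them. The log2 ratios were 2.20 (interval 1.89 to 2.52) for ATAH to ATAB, 3.44 (3.15 to 3.74) for ATAS to ATAB and 1.24 (1.08 to 1.40) for ATAS to ATAH. NR4A1 was called higher in ATAH than in ATAB, by 1.80 (interval 1.73 to 1.86), and in ATAS than in ATAB, by 2.49 (2.42 to 2.55), and was 0.69 higher in ATAS than in ATAH with no call. These 2 genes and NR2E1 were still called between ATAB and ATAS with TMM factors.

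The other calls between ATAB and ATAS included NR2E1, NR5A2, NR3C2, NR4A2 and PPARGC1A, with log2 ratios of 3.47 (interval 1.79 to 5.82), 1.33 (0.75 to 1.93), 1.24, 1.20 (1.04 to 1.37) and 1.08 (0.74 to 1.42). PPARGC1A, the coactivator known for mitochondrial biogenesis, had 136, 109, 132 and 222 reads (1.41, 1.07, 1.34 and 2.26 RPKM) and was highest in ATAS. All but NR2E1 of these lost their call with TMM factors, which left 3 of the 8 calls. The third call between ATAB and ATAH was RARRES1, which was 1.17 higher in ATAH (interval 0.99 to 1.35) and also lost its call with TMM factors.

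**Figure D4:**
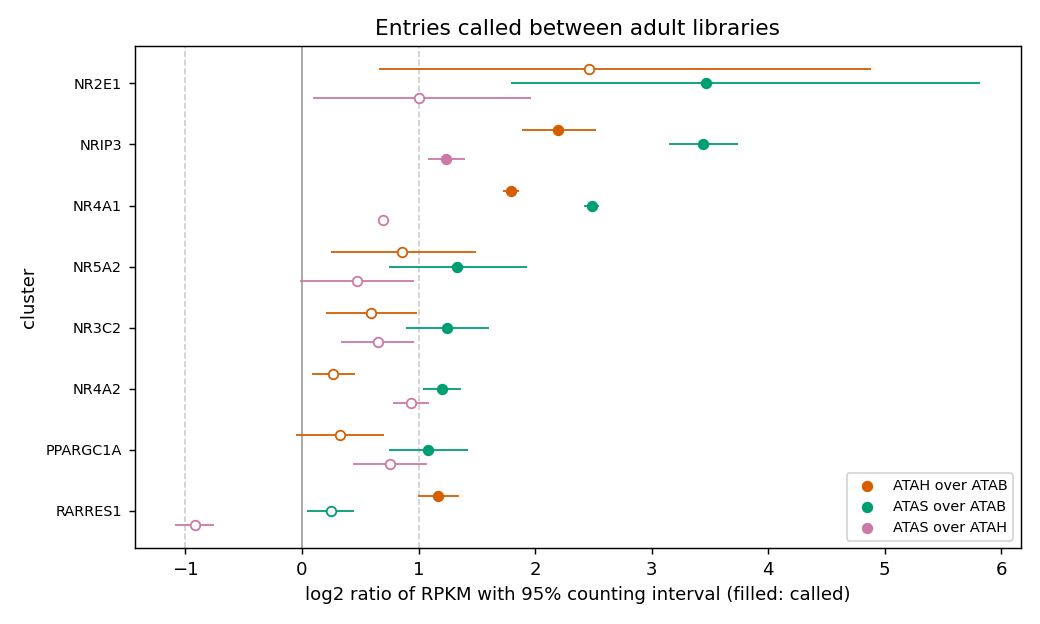
Log2 ratio of RPKM between adult libraries for 8 entries called in at least 1 of these comparisons, with 95% counting intervals, filled where called and with dashed lines at a log2 ratio of 1 in size. NRIP3 has 3 filled points, NR4A1 has 2, and the intervals of NR2E1 and NR5A2 are wide because their reads are few.

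Among the coregulators, NSD1 was called higher in each adult library and PNRC2 lower in ATAB. Of the 15 coactivators and corepressors, 2 were called between ATFB and ATAB, 1 between ATFB and ATAH and 4 between ATFB and ATAS, where 22.6%, 23.7% and 26.0% of all clusters were called. Of the receptor entries, 10 of 29, 13 of 30 and 11 of 31 were called, and the difference was not tested. NRIP3, TRIP12 and TRIP13, which the coregulator lists also hold, were counted in neither group. Against ATFB, TRIP13 was called in ATAB, ATAH and ATAS, NRIP3 in ATAH and ATAS, and TRIP12 in ATAS. NSD1, a histone methyltransferase that binds receptors, had 4.89, 10.8, 11.7 and 13.2 RPKM from 557, 1296, 1367 and 1537 reads. The adult libraries lay close together above ATFB, with log2 ratios of 1.14, 1.27 and 1.44 and an edgeR quasi-likelihood adjusted p of 0.0301. Scaled by ACTB, the ratios in ATAB and ATAH were 0.90 and 0.99, so that ATAS alone was called, and without ATAH NSD1 did not pass the edgeR test. PNRC2, a coactivator that also takes part in mRNA decapping, had 130, 41.9, 82.7 and 67.2 RPKM, was highest in ATFB, and was called lower only in ATAB, by -1.64 (interval -1.72 to -1.56).

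The called coactivators in ATAS other than NSD1 lay just past the threshold and lost their call with TMM factors, DESeq2 size factors and ACTB scaling. NCOA4, which also delivers ferritin for breakdown, had 39.1, 61.0, 77.3 and 81.4 RPKM and a log2 ratio of ATAS to ATFB of 1.06. NCOA5 had 5.88, 8.38, 10.7 and 12.4 RPKM with 1.08, and PPRC1, a relative of PPARGC1A, had 5.89, 6.91, 10.6 and 12.7 RPKM with 1.11. NCOA1, a histone acetyltransferase that binds many liganded receptors, had 8.98, 9.09, 10.6 and 12.2 RPKM and no call. NCOA7 (6.39 to 10.3 RPKM), NRBF2 (9.26 to 9.90 RPKM), TRIP4 (12.7 to 19.6 RPKM), PNRC1 (28.4 to 54.3 RPKM) and THRAP3 (55.8 to 69.7 RPKM) had no call either.

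The corepressors among the entries were not called in any comparison. NCOR1, the scaffold that brings histone deacetylase to receptors without ligand, had 22.3, 22.6, 31.0 and 34.4 RPKM, with log2 ratios to ATFB of 0.02, 0.48 and 0.62. ATFB and ATAB were near each other and below ATAH and ATAS. LCORL was rare, at 0.613 to 0.838 RPKM.

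Among the other proteins named after a receptor, RARRES1 and TRIP13 were called lower in each adult library. RARRES1, a membrane protein first found as a gene that retinoids induce, had 292, 22.6, 50.7 and 26.8 RPKM from 4715, 386, 837 and 441 reads. It was far higher in ATFB than in any adult library, with log2 ratios of -3.69 (interval -3.84 to -3.54), -2.52 (-2.63 to -2.42) and -3.44 (-3.59 to -3.30) and an edgeR quasi-likelihood adjusted p of 0.0094. TRIP13, an ATPase of the mitotic checkpoint, had 3.94, 1.77, 1.83 and 1.68 RPKM. Its adult levels were alike and below ATFB, with log2 ratios of -1.15, -1.10 and -1.23 and an edgeR quasi-likelihood adjusted p of 0.0502. With TMM factors TRIP13 had -0.98 in ATAB and was not called there.

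PGRMC2, a heme-binding membrane protein, was the most abundant of these proteins in the adult libraries, at 76.4, 146, 156 and 148 RPKM, and its log2 ratios to ATFB of 0.94, 1.03 and 0.95 put only ATAH past the threshold, a call that was lost with TMM factors, DESeq2 size factors and ACTB scaling. NRBP2, a pseudokinase, had 11.8, 19.5, 24.0 and 26.2 RPKM and was called higher in ATAH and ATAS, by 1.03 and 1.15. With each of these 3 scalings NRBP2 lost its call in ATAH, and with DESeq2 and ACTB also that in ATAS. The ubiquitin ligase TRIP12 had 16, 22.3, 30.2 and 34.3 RPKM and was called higher in ATAS, by 1.10, and with TMM, DESeq2 and ACTB the ratio was 0.98, 0.94 and 0.85 and not called. TRIP10, a scaffold of membrane bending, had 138, 87.5, 143 and 144 RPKM, lowest in ATAB, and NRBP1 had 85.8, 67.7, 69.4 and 81.8 RPKM, and neither was called. PGRMC1 (52.8 to 67.8 RPKM), TRIP6 (12.7 to 21.3 RPKM) and EBAG9 (8.33 to 10.9 RPKM) were not called either.

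**Figure D5:**
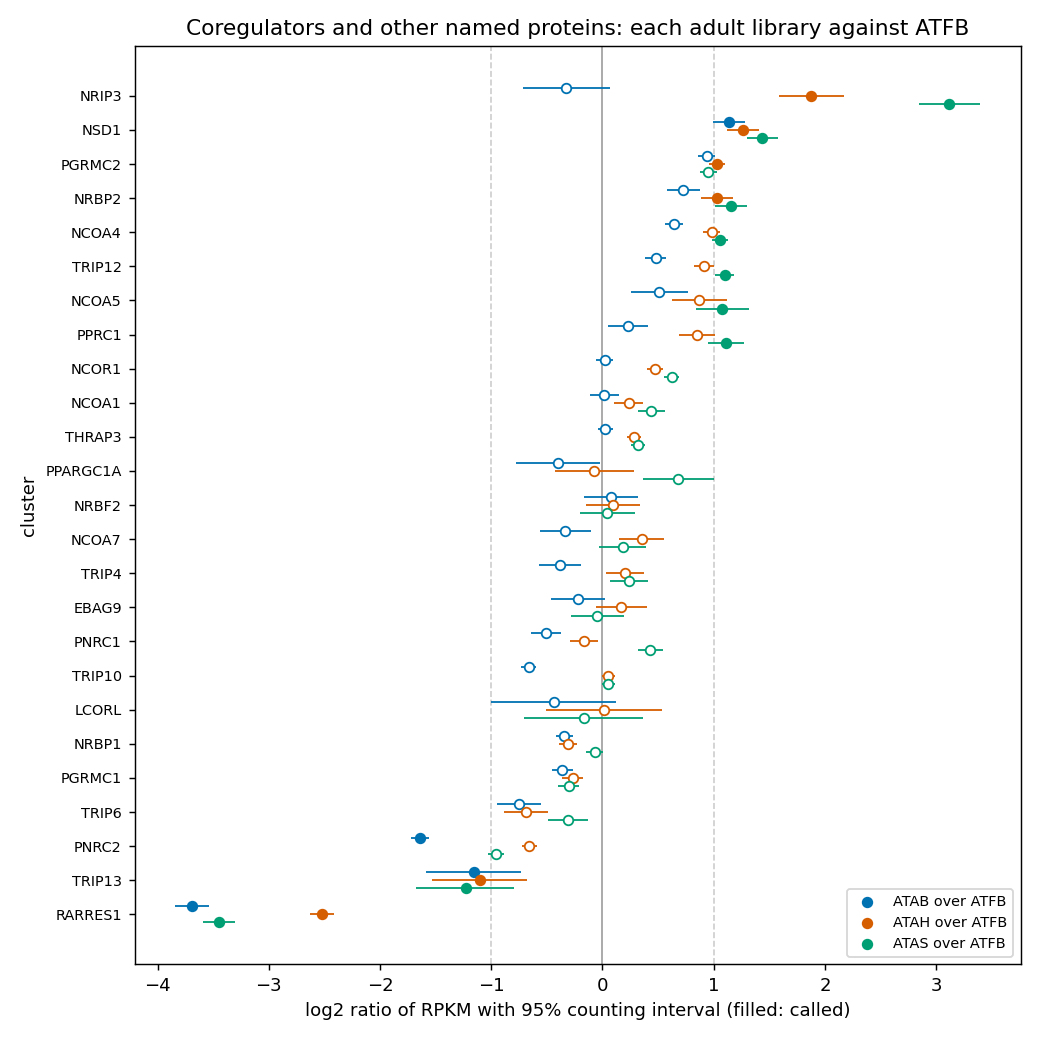
Log2 ratio of RPKM of each adult library to ATFB for 25 coactivators, corepressors and other named proteins, with 95% counting intervals, filled where called and with dashed lines at a log2 ratio of 1 in size. RARRES1 and TRIP13 have 3 filled points to the left, NSD1 has 3 to the right, and most other points lie between the dashed lines.

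Receptors whose descriptions use none of the searched names gave further values. HNF4A, known from liver and gut, had 0.0290, 4.22, 4.05 and 5.50 RPKM from 2, 308, 285 and 386 reads and was called higher in each adult library, with an edgeR quasi-likelihood adjusted p of 0.00534. VDR, the vitamin D receptor, had 2, 38, 26 and 51 reads (0.0927 to 2.32 RPKM) and was also called higher in each, with an edgeR quasi-likelihood adjusted p of 0.0261. PPARA had 4.33, 8.01, 6.42 and 8.15 RPKM with no call, though it was called higher in ATAB with TMM and DESeq2 factors, ESRRA had 16.04, 22.4, 24.4 and 17.2 RPKM with no call, and NR2F1, at 16.8, 10.95, 8.29 and 13.4 RPKM, was called lower in ATAH.

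Of 10 listed coactivators and corepressors whose descriptions use none of the searched names, 0, 1 and 2 were called higher and 1, 1 and 0 lower in ATAB, ATAH and ATAS than in ATFB, beside 22.6%, 23.7% and 26.0% of all clusters called. TBL1XR1, a subunit of the NCOR1 corepressor complex, had 5.82, 10.4, 12.02 and 15.4 RPKM, with log2 ratios to ATFB of 0.84, 1.05 and 1.41 and an edgeR quasi-likelihood adjusted p of 0.0455. It was called higher in ATAH and ATAS, and its call in ATAH was lost with TMM, DESeq2 and ACTB scaling, while with TMM factors it was also called higher in ATAB. CARM1, which methylates arginines of histones, had 16.4, 22.4, 28.2 and 37.2 RPKM and was called higher in ATAS, by 1.18, but not with ACTB scaling. TGS1, an RNA cap methyltransferase, had 15.6, 4.804, 6.67 and 10.3 RPKM and was called lower in ATAB and ATAH, by -1.70 and -1.22. PPARG, RXRA, NCOA2, NCOA3, NCOA6 and NRIP1 were not analysed here.

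Genes that the receptors are known to control, or that make and break their ligands, were read from lists outside the searched names. Their counts are to be read against the share of all clusters called higher, 9.51%, 13.9% and 15.5%, or lower, 13.1%, 9.83% and 10.5%, in ATAB, ATAH and ATAS than in ATFB, and against 29.5%, 33.7% and 36.1% called in either direction among described clusters with at least 100 reads. Of 12 PPAR target genes, 10, 10 and 9 were called higher in ATAB, ATAH and ATAS than in ATFB, and FABP3, named after its values were seen, was called lower in each, but not in ATAB with TMM factors. PLIN1, the coat protein of lipid droplets, had 72.7, 520, 834 and 1005 RPKM, and CIDEC, which enlarges droplets, had 168, 1470, 1743 and 1607. PDK4 and CPT1A, of fatty acid use, had 46.2, 238, 477 and 765 RPKM and 1.96, 12.6, 16.3 and 32.7 RPKM. PLIN1 and CIDEC, like ADIPOQ and LPL of this list, are also 4 of the 6 adipocyte markers summed above, so the list and that sum are not separate measurements.

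Of 6 LXR target genes, 2, 3 and 3 were called higher in ATAB, ATAH and ATAS than in ATFB and 0 lower. For ATAB this was near the 29.5% of described clusters called in either direction, while 9.51% of all clusters were called higher there. SCD, the fatty acid desaturase, had 177, 5557, 5493 and 2544 RPKM, and ABCG1, a cholesterol exporter, had 1.33, 4.57, 7.03 and 9.99, while the receptors NR1H2 and NR1H3 were not called. SREBF1 had 39.1, 61.0, 87.5 and 60.8 RPKM, called in ATAH, and PLTP had 13.97, 13.3, 27.3 and 28.5 RPKM, called in ATAS. PLTP lost that call with all 3 other scalings, and SREBF1 lost its call with ACTB. Of 6 genes of thyroid hormone handling, 2 were called higher in each adult library and 4 were not called against ATFB, beside 9.51%, 13.9% and 15.5% of all clusters called higher. These 4, DIO3, CRYM, SLC16A10 and DIO2, had only 53, 48, 9 and 2 reads over the 4 libraries, so a change in them could be missed. THRSP, a lipogenic gene that thyroid hormone induces, had 31.3, 3188, 1456 and 597 RPKM, and it was called lower in ATAH and ATAS than in ATAB, while THRB was lowest in ATAB of the adult libraries.

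Of 9 glucocorticoid target genes, 0, 4 and 6 were called higher and 3, 1 and 0 lower in ATAB, ATAH and ATAS than in ATFB, with NR3C1 itself called nowhere. With TMM factors and with DESeq2 size factors, KLF9 was also called higher in ATAB. With ACTB scaling, 4 were called lower in ATAB and 4 higher in ATAS. Between the adult libraries, 5 of the 9 were called higher in ATAH and 8 in ATAS than in ATAB, and 0 lower, beside 4.14% and 6.86% of all clusters called higher. With TMM factors these counts were 3 and 5, beside 2.05% and 3.34%, and DUSP1 was called in neither. With DESeq2 size factors they were 2 and 5, and with ACTB scaling 4 and 8. SGK1, a kinase, had 20.9, 34.1, 82.7 and 120 RPKM, and the transcription factor KLF9 had 18.3, 35.5, 64.2 and 90.2. DUSP1, a phosphatase that is also an immediate early gene, had 156, 230, 463 and 560 RPKM, and CEBPD had 447, 96.4, 216 and 278. All 4 were higher in ATAS than in ATAB, as NR4A1 was.

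Of 11 genes of retinoid handling, 3, 3 and 3 were called higher in ATAB, ATAH and ATAS than in ATFB, and 1, 2 and 2 lower, near the 29.5%, 33.7% and 36.1% of described clusters. ALDH1A1, which makes retinoic acid, had 62.9, 260, 294 and 317 RPKM, and LRAT, which stores retinol as ester, had 0.421, 1.27, 2.14 and 2.27. CYP26B1, which breaks retinoic acid down, had 1.73, 8.04, 3.11 and 6.56 RPKM. CRABP1, a binding protein, had 2 clusters with opposite patterns, 1 with 408, 2, 0 and 15 reads and the other with 0, 40, 13 and 4 reads. The counts above use the first alone, which has more reads and is the 1 lower call in ATAB.

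Of 8 genes of steroid metabolism, 2, 2 and 1 were called higher in ATAB, ATAH and ATAS than in ATFB and 0 lower, near or below the 22.6%, 23.7% and 26.0% of all clusters called. SRD5A1, which makes the stronger androgen from testosterone, had 1.83, 7.28, 5.93 and 3.81 RPKM, highest in ATAB, and its call in ATAS was lost with all 3 other scalings. STS, which frees steroids from sulfate, had 0.529, 1.59, 1.76 and 1.07 RPKM, while SRD5A3 at 7.59 to 14.8 RPKM and HSD17B4 at 43.0 to 59.9 RPKM were not called.

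Of 9 further clock genes, of which PER1 is also among the glucocorticoid targets, 4, 5 and 5 were called higher in ATAB, ATAH and ATAS than in ATFB, against 9.51%, 13.9% and 15.5% of all clusters, and 2, 1 and 0 lower, against 13.1%, 9.83% and 10.5%. PER2 had 3.46, 9.28, 20.8 and 17.8 RPKM, PER3 0.806, 2.27, 3.53 and 3.25, and HLF 1.71, 6.07, 9.54 and 9.26, and all 3 were higher in each adult library, as NR1D2 was. NPAS2, an activator that NR1D1 represses, had 3.04, 1.18, 0.779 and 1.87 RPKM and was called lower in ATAB and ATAH. Of 8 chaperones that hold steroid receptors ready for ligand, of which FKBP5 is also a glucocorticoid target, 0 were called higher and 2, 1 and 0 lower, and HSP90AA1 had 258, 145, 137 and 136 RPKM with no call. With TMM factors HSP90AA1 was called lower in ATAH and ATAS and PTGES3 also in ATAS, and with ACTB scaling 4, 2 and 4 of the 8 were called lower. PTGES3, the cochaperone of HSP90, had 76.8, 25.4, 37.6 and 38.7 RPKM and was called lower in ATAB and ATAH, while HSPA8, at 587, 243, 393 and 338 RPKM, was called lower in ATAB and FKBP4, at 88.3, 54.8, 54.6 and 51.2 RPKM, in none.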

How the data were processed

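Total RNA of 5 animals per group was pooled, and poly(A) RNA was sequenced as 1 library per group. The authors aligned cleaned Illumina reads with SOAPaligner and deposited, per UniGene cluster, the count of reads that matched once, the RPKM and the percent of the sequence covered. Their notes name CASAVA, and versions are not given in the sources used here. The deposited counts summed to the library totals, and the RPKM followed from them.

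Symbols came from accessions (19 entries), bracketed names (9) and full names (29) in the authors' sequence file, and RefSeq tables gave names only. Of 59 matching descriptions, 57 were in the count tables. Counts were compared by the binomial test (SciPy 1.17.1) and by edgeR 4.0.16 with TMM factors and its default filter, and both were tested on simulated data. DESeq2 1.42.0 was an alternative.

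Entries, lists and tests were chosen with earlier results of these data known. Every receptor with at least 20 reads was named, and 4 genes that the rules name are not reported here, though counts over entries hold them. Of other entries, up to 8 called per comparison with at least 50 reads in 1 library, the 5 with the highest mean RPKM and the listed coregulators with at least 100 reads were named, and up to 4 genes per pathway list with the largest mean log2 ratio and at least 100 reads. Intervals and floors cover counting error alone, because PCR copies of a molecule were not told apart.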

Additional observations from a re-analysis of the deposited data

How the results depend on the processing

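No called ratio between 2 libraries could reverse its direction under the alternatives run, so its direction is no check. A call needs a log2 ratio of at least 1 in size. The other scalings move every ratio by about 0.30 or less, and the other settings keep the same ratio. Of ratios to ATFB that were not called, 3, 3 and 5 entries in ATAB, ATAH and ATAS turned sign with TMM factors, 3, 3 and 5 with DESeq2 size factors and 10, 6 and 8 with ACTB, among them NR3C1, NR1H2, NR1H3 and NCOR1 in ATAB with ACTB, and the median over the entries in ATAB turned positive with TMM factors. An edgeR exact test with an assumed coefficient of variation of 0.4 called 1, 1 and 1 entries in ATAB, ATAH and ATAS against ATFB and 0, 0 and 0 in the adult comparisons, where 3, 3 and 0 entries had an unadjusted p under 0.05, against 14, 19, 20, 3, 8 and 1 by the binomial test. Between ATAB and ATAS, 3 entries were called with TMM factors and 3 with DESeq2 size factors, against 8. For ATFB against the adult libraries, leaving out 1 adult library gave 7 to 21 entries past the threshold, against 11; 7 without ATAH, 11 without ATAS and 21 without ATAB. The likelihood ratio test gave 15, DESeq2 15 and library totals 10, without RXRG. The share of all clusters past the threshold was not taken under these alternatives.

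The 10 entries called higher than ATFB in ATAB, ATAH and ATAS alike numbered 9 with TMM factors and 9 with DESeq2 size factors, both without RXRG, and 7 with ACTB scaling, without RXRG, NR1D2 and NSD1. TMM factors also lost TRIP13 in ATAB. With ACTB scaling, the calls against ATFB were 7 higher and 6 lower in ATAB (53.8% higher, against 71.4%), 10 and 5 in ATAH (66.7%, against 78.9%) and 12 and 3 in ATAS (80%, against 90%), and DESeq2 size factors also gave 12 and 3 in ATAS. Every log2 ratio to ATFB moves by 0.18, -0.10 and -0.12 in ATAB, ATAH and ATAS with TMM factors and by -0.24, -0.27 and -0.25 with ACTB. With a minimum of 50 reads and with 1 cluster per symbol, all 65 and 62 values kept their call. The counts of listed genes outside the entries under other scalings were added after the data were seen.

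No paired analysis was possible because each group has 1 library and the shared number 1 pairs nothing. With 1 pool per group, the binomial test covers reads and not animals. Under about 20 reads in a library, as in each library for PGR and NR0B1, counting error is wide, and neither gene was called in any comparison.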
